A study of Mus musculus with 7 samples.

Results

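Cytosolic ribosomal protein genes were followed across 7 RNA-seq libraries of mouse bone marrow-derived macrophages, cells grown out of bone marrow with the growth factor M-CSF. A gene was included when its name began with Rpl or Rps and a digit, or was Rplp0, Rplp1, Rplp2 or Rpsa; S6 kinase genes (Rps6k) and names marked as pseudogenes (-ps) were left out. This rule found 86 of the 23337 genes listed, 52 with large-subunit names and 34 with small-subunit names. Of these, 77 are the usual ribosomal protein genes and 9 are paralogs or name-alikes.

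The macrophages came from male mice of 6 to 8 weeks, either wild type (WT) or Tgm2 knockout (KO), and every culture had received M-CSF at 25 ng/ml for 7 days. Unstimulated cultures are called M0, and the others then received bacterial lipopolysaccharide (LPS), a Toll-like receptor agonist, at 10 ng/ml for 6 hours. There were 2 WT M0, 1 KO M0, 2 WT LPS and 2 KO LPS libraries. Whether replicates are separate animals or cultures is not in the labels; the p-values therefore cover only how these libraries vary, which may be technical variation. The kind of Tgm2 allele is not stated either.

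The ribosome joins ribosomal RNA with a fixed set of proteins, each normally present as a single copy per particle, in a small subunit that reads the mRNA and a large subunit that forms the peptide bond. Messages for these proteins are among the most abundant in most cells. Their transcription usually starts at a cytosine followed by a run of pyrimidines, the 5′ terminal oligopyrimidine (TOP) element, through which mTORC1 and the RNA-binding protein Larp1 control their translation and stability. Macrophages stimulated with LPS redirect much of their transcription toward inflammatory genes.

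RefSeq start sites (build GRCm38.p6) were available for 65 of the 86 members, with 77 start sites in all. A run of at least 8 C or T that began with C lay within 15 bases either side of 27 of the 77 starts (35.1%), against 9.26% of all 32851 RefSeq promoters. Windows of 30 bases around the start are printed for members described below, on the strand of the gene, with the longest such run in capitals. Rpl13a, Rpl15, Rpl18, Rps18, Rplp2, Rps6 and Rpl22l1 hold such a run. Rpl10a and Rps16, shown for contrast, hold only shorter ones.
Rpl13a, chr7:45128731-45128760: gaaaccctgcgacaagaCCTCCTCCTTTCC
Rpl15, chr14:18270972-18271001: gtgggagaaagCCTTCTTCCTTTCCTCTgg
Rpl18, chr7:45718056-45718085: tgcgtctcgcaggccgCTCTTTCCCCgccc
Rps18, chr17:33955651-33955680: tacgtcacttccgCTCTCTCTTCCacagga
Rplp2, chr7:141447636-141447665: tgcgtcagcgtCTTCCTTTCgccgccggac
Rps6, chr4:86857353-86857382: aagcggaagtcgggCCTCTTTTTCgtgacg
Rpl22l1, chr3:28805493-28805522: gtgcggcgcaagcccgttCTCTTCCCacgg
Rpl10a, chr17:28328456-28328485: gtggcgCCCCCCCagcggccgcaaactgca
Rps16, chr7:28350674-28350703: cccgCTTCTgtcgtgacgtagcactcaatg
Within the full 300-base promoters, read on both strands, CGGAAG was found in 47 of the 77 member promoters (61.0%) and in 16.9% of all promoters. TATAAA was found in 9.09% of member promoters and in 13.6% of all promoters.

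Values were in TPM, a transcript measure scaled for gene length and to the same total in every library; no sequencing depth can be read from it, and the depth is unknown. Tgm2 stood at 433 and 368 TPM in untreated WT, 50.7 in untreated KO, 233 and 199 in treated WT, and 19.4 and 19.2 in treated KO, which follows the genotype labels. Both libraries of treated WT cells carried Xist, the X-inactivation RNA, at 47.2 and 55.4 TPM, while the other 5 were at 0.00535 TPM or listed at 0, although all are labelled male; the Y-linked Eif2s3y was at 32.8 and 37.2 TPM in those libraries, against 66.1 to 78.3 TPM elsewhere. Its part in the WT LPS results below was not tested, and results on knockout cells are also given without those libraries. Macrophage markers summed to 37308 to 50199 TPM, and markers of T, B, NK, erythroid, dendritic and mast cells to at most 2.11 TPM. Of the neutrophil list, Elane, Mpo and S100a9 were under 1 TPM everywhere and S100a8 rose with LPS, so that the list summed to 5.01 to 7.51 TPM in M0 and 96.9 to 322 TPM in LPS libraries. The 4 stromal and endothelial markers summed to 20.4 to 35.9 TPM in M0 libraries, and in LPS libraries to 0.454 to 5.12 TPM. The part of these in the changes below was not tested.

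Ribosomal protein genes made up a smaller share of the transcriptome in every LPS library than in any M0 library. They held 10.4% and 8.69% of all TPM in WT M0 and 9.11% in KO M0. In WT LPS they held 5.91% and 6.07%, and in KO LPS 5.92% and 5.83%. The group means were 9.57% ± 1.24 (SD, n = 2) in WT M0, 5.99% ± 0.115 (SD, n = 2) in WT LPS and 5.87% ± 0.0599 (SD, n = 2) in KO LPS, so the share after LPS was 0.626 of the untreated share in WT and 0.645 in KO cells. The genotypes' LPS libraries overlapped, and the share, as a sum over the members, was given no test.

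**Figure D1:**
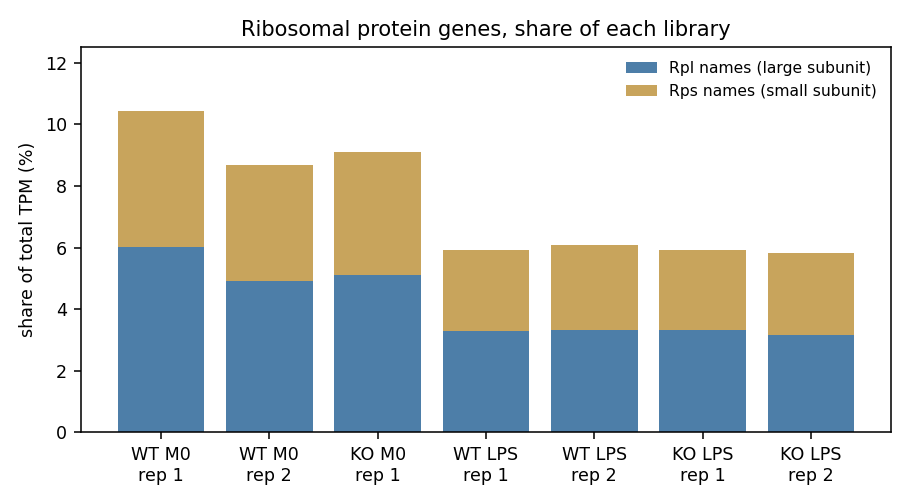
Share of total TPM (%) held by ribosomal protein genes in each of the 7 libraries, stacked into large-subunit (Rpl) and small-subunit (Rps) names. The 3 M0 bars stand between 8.69% and 10.4%, and the 4 LPS bars between 5.83% and 6.07%.

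Both subunits took part. Large-subunit names held 6.01%, 4.92% and 5.10% in WT M0 replicates 1 and 2 and KO M0, and 3.17% to 3.34% in the LPS libraries. Small-subunit names held 4.44%, 3.77% and 4.01% in the same M0 libraries and 2.58% to 2.75% after LPS. Among the 100 genes with the highest TPM, 27 to 33 were members in M0 libraries and 9 to 12 in LPS libraries.

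A share of a fixed total also moves with the other abundant messages, whose values therefore stand beside it. Fth1, the ferritin heavy chain, held 2.58% to 3.70% of TPM in M0 and 4.66% to 7.10% in LPS libraries. Saa3, an acute-phase serum amyloid gene, held at most 0.0362% in M0 and 2.15% to 3.52% after LPS. With the 10 most abundant other genes removed from the total, the members' share was 11.3% in WT M0 and 10.7% in KO M0 before and 7.30% and 7.01% after LPS, so the LPS groups remained below both M0 groups. In bulk RNA, fewer cells of a type and less RNA per cell cannot be told apart.

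Most single members were lower after LPS in WT cells. Of 83 members with a mean of at least 1 TPM, 55 were lower and 0 higher in WT LPS than in WT M0 (limma on log2(TPM + 1), Benjamini-Hochberg adjusted p under 0.05 over all 11096 genes tested), where 29.6% of all genes tested were lower and 15.0% higher. At an unadjusted limma p under 0.05 there were 61 members, 0 of them higher, against 5776 of the 11096 genes tested in either direction. The median log2 fold change of the members was -0.61, against -0.21 over all genes. By subunit, 35 of 49 large-subunit and 20 of 34 small-subunit names were lower.

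The call count in WT cells depended on single libraries and on the scaling. It was 28 without WT M0 replicate 1, 30 without WT LPS replicate 1 and 29 without WT LPS replicate 2, when 22.1%, 20.0% and 24.8% of all genes were lower. With TPM rescaled by the median ratio across genes, which moved the median of all genes to -0.01, 19 members were lower (22.9%, against 21.2% of all genes) and Rpl24 was higher. The members' median log2 fold change was then -0.39, and 72 of 83 lay below 0.

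In KO cells 39 of the 83 members were lower and 0 higher in KO LPS than in KO M0, where 24.3% of all genes tested were lower and 13.8% higher. The unadjusted count was 54, again with 0 higher, against 5230 of the 11096 genes tested in either direction. The members' median log2 fold change was -0.56, against -0.24 over all genes, and 23 of 49 large-subunit and 16 of 34 small-subunit names were called. KO M0 is a single library, whose spread is assumed to be like that of the other groups. The count was 30 with both WT LPS libraries left out, an alternative chosen after seeing the data. It was 17 (20.5%, the same share as over all genes) when the KO libraries were fitted alone. With median-ratio scaling it was 8 (9.64%, against 16.7% of all genes), with a median log2 fold change of -0.31 against -0.01 over all genes. In KO cells, then, the members' median lay below that of all genes in each of these fits, while their share of calls lay above the background in some fits and at or under it in others.

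**Figure D2:**
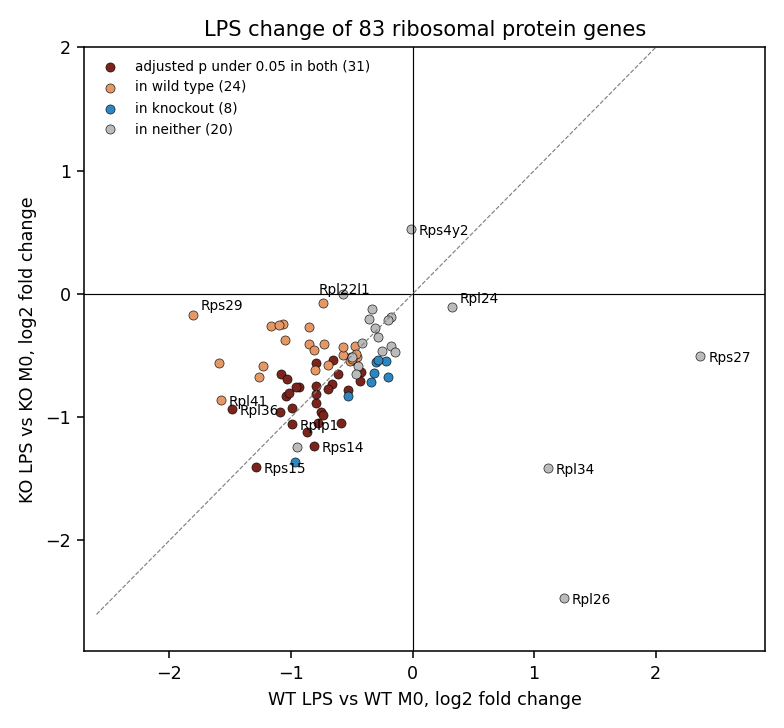
Log2 fold change after LPS in WT cells (x axis) and KO cells (y axis) for the 83 members tested, on the log2(TPM + 1) scale; colours give the genotype in which the adjusted p was under 0.05, and the dashed line marks equal change. Of the points, 78 lie below 0 on both axes, and Rpl26, Rps27 and Rpl34, which share sequence with abundant copies, stand far from the rest.

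The 2 LPS comparisons share no library, but their p-values rest on a shared estimate of the spread from the fit of all 7 libraries. Calls in the 2 genotypes are therefore not independent. Lower calls in both numbered 31, with a further 24 passing in WT alone, 8 passing in KO alone and 20 in neither. As shares of the 83, these were 37.3% in both, 28.9% in WT alone and 9.64% in KO alone, against 19.5%, 10.1% and 4.88% of all genes tested. None of the 83 passed the test of the difference between the genotypes' LPS changes (limma interaction, adjusted p under 0.05). Of all genes, 1.37% passed it. At an unadjusted interaction p under 0.05 there were 2 members, against 1160 of the 11096 genes tested. Passing in a single genotype therefore does not show that the genotypes differ. Across the 80 members other than Rpl26, Rps27 and Rpl34, the WT and KO fold changes had a Pearson r of 0.39 and a Spearman rho of 0.41, over genes of the same libraries, which are not independent replicates. All 4 LPS libraries lay below all 3 M0 libraries for 63 of 83 members (75.9%), against 38.4% of all genes tested, and 0 members showed the opposite order, against 19.0%. The other 20 overlapped.

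The stalk of the large subunit, which recruits elongation factors, contains the most abundant member. Rplp1, a stalk protein, stood at 3712 and 3584 TPM in untreated WT, 3593 in untreated KO, 1877 and 1789 in treated WT, and 1607 and 1850 in treated KO. The LPS libraries did not overlap the M0 libraries and held about 50.2% of the WT and 48.1% of the KO untreated level. Rplp1 changed by -0.99 on the log2 scale in WT cells (SE 0.16, limma adjusted p = 0.000479) and by -1.06 in KO cells (SE 0.19, adjusted p = 0.00147). Rplp0, the stalk base, was 2049 and 1873 TPM in untreated WT, and 2021 in untreated KO, and after LPS 1350 and 1403 in WT and 1376 and 1456 in KO. Its fall was shallower, by 0.51 on the log2 scale in each genotype (SE 0.15 and 0.18, limma adjusted p = 0.0177 and 0.0471). Rplp2, the partner of Rplp1, was 1533 and 1228 TPM in untreated WT, 1180 in untreated KO, 797 and 728 in treated WT, and 986 and 974 in treated KO. It fell by 0.85 in WT cells (adjusted p = 0.0017), and its KO value of -0.27 did not pass (limma adjusted p = 0.313), nor did the difference between genotypes (0.58, SE 0.26, adjusted p = 0.459).

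Rpl10, Rps12, Rps9, Rps4x and Rps20 were also among the 8 members of highest mean TPM. Rpl10, a protein that joins the large subunit late in its maturation, was 3011 and 3017 TPM in untreated WT, 3082 in untreated KO, 1982 and 2315 in treated WT, and 1821 and 2473 in treated KO. No LPS value reached an M0 value, but the WT change of -0.49 (SE 0.18, limma adjusted p = 0.0495) passed only narrowly, and the KO value of -0.54 (SE 0.22, adjusted p = 0.0833) did not. Rps12 and Rps9, small-subunit proteins, fell in WT cells, with log2 fold changes of -0.46 and -0.57 (limma adjusted p = 0.0406 and 0.0164), while their KO values of -0.51 and -0.43 did not pass. Rps4x, the X-linked small-subunit gene, and Rps20 fell in KO cells, with log2 fold changes of -0.64 and -0.55 (limma adjusted p = 0.0225 and 0.0448), with WT values of -0.31 and -0.30 that did not pass.

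On the small subunit, Rps14, Rps16 and Rps15 fell in both genotypes. Rps14, whose human counterpart is lost in a form of myelodysplastic syndrome, was 2154 and 2050 TPM in untreated WT, 2151 in untreated KO, 1145 and 1252 in treated WT, and 893 and 932 in treated KO. The replicates differed little and the KO LPS pair lay below the WT LPS pair. It fell by 0.81 in WT (SE 0.15, limma adjusted p = 0.00132) and fell by 1.24 in KO cells (SE 0.18, adjusted p = 0.000401), and KO LPS against WT LPS, at -0.39, did not pass (adjusted p = 0.168). Rps16, whose tail reaches toward the decoding site, was 1626 and 1421 TPM in untreated WT, and 1478 in untreated KO, and after LPS 840 and 820 in WT and 699 and 657 in KO. Its log2 fold changes were -0.87 (SE 0.15, limma adjusted p = 0.000908) and -1.12 (SE 0.18, adjusted p = 0.00082). Rps15, a protein of the head of the small subunit, was 1634 and 1242 TPM in untreated WT, and 1270 in untreated KO, and 626, 540, 621 and 370 TPM in WT LPS replicates 1 and 2 and KO LPS replicates 1 and 2. In KO cells it fell by 1.40 (SE 0.29, limma adjusted p = 0.00356), the largest fall of any member called there, and in WT it fell by 1.29 (SE 0.24, adjusted p = 0.0014).

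On the large subunit, Rpl10a, the protein of the L1 stalk near the tRNA exit site, was 893 and 844 TPM in untreated WT, 851 in untreated KO, 404 and 410 in treated WT, and 508 and 375 in treated KO. It fell by 1.09 in WT (SE 0.17, limma adjusted p = 0.000506) and fell by 0.96 in KO (SE 0.21, adjusted p = 0.00477). Rpl3, which reaches the peptidyl transferase centre, was 880 and 886 TPM in untreated WT, 848 in untreated KO, 404 and 431 in treated WT, and 496 and 592 in treated KO; it fell, with log2 fold changes of -1.08 in WT and -0.65 in KO cells (limma adjusted p = 0.000256 and 0.0202). Rpl15 was 400 and 299.6 TPM in untreated WT, 278 in untreated KO, 162 and 133 in treated WT, and 206 and 166 in treated KO. It fell by 1.23 in WT (limma adjusted p = 0.000487), and the KO value of -0.58 did not pass (adjusted p = 0.0752). Rpl18 and Rpl32 fell in KO cells, by log2 fold changes of -0.96 and -0.98 and in WT cells with -0.75 and -0.74.

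**Figure D3:**
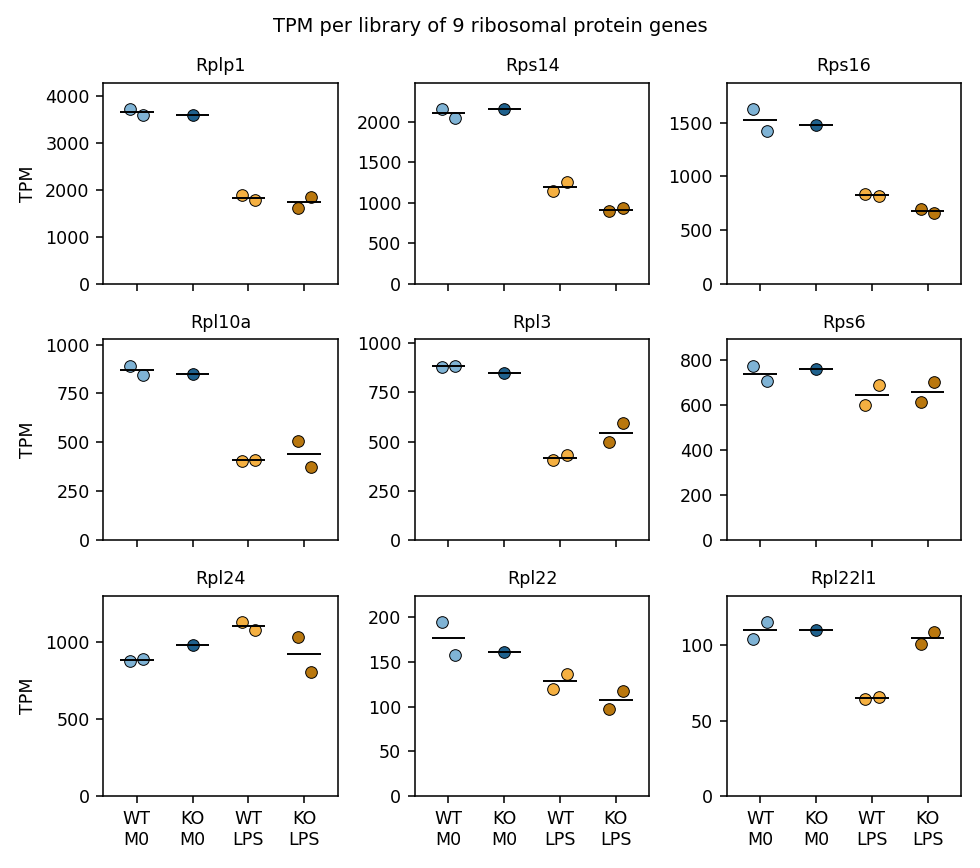
TPM of 9 members in each library (points) with group means (lines), from 0; KO M0 has 1 library. Rplp1, Rps14, Rps16, Rpl10a and Rpl3 show LPS points clear of the M0 points, and Rps6 does not drop as far. Rpl24 is higher in WT LPS than in WT M0, and Rpl22l1 is low in WT LPS alone.

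Rplp1, Rps14, Rps16 and Rpl10a were among the members lower with adjusted p under 0.05 in both genotypes in every fit that could be made. These included the rescaled fits and the fits without single libraries. No KO change could be fitted without the only KO M0 library. In WT comparisons alone 19 members were lower in every fit (22.9%, against 16.3% of all genes tested), and in KO comparisons 7 (8.43%, against 13.7%). In both genotypes the members' share was 6.02%, under the 10.7% of all genes. The remaining calls were lost in at least 1 fit, and some in most. Among the KO calls, those of Rps20, Rplp0 and Rpl7 held in 4, 5 and 6 of 14 other fits.

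Some members also have known roles outside the ribosome. Rpl5 and Rpl11 together bind Mdm2, the ubiquitin ligase of p53; Rpl11 was 1560 and 1176 TPM in untreated WT, and 1224 in untreated KO, 744 and 622 in treated WT, and 741 and 562 in treated KO. It fell, with log2 fold changes of -0.99 and -0.92 (limma adjusted p = 0.00224 and 0.0125). Rpl5, at 534 and 541 TPM in untreated WT, 566 in untreated KO, 469 and 504 in treated WT, and 393 and 424 in treated KO, had changes of -0.14 and -0.47 that did not pass (limma adjusted p = 0.443 and 0.0584). Rpl13a, known in interferon-treated monocytes as part of a complex that silences inflammatory messages, was 1393 and 1064 TPM in untreated WT, 1033 in untreated KO, 594 and 608 in treated WT, and 629 and 556 in treated KO. It fell, with log2 fold changes of -1.02 and -0.81 (limma adjusted p = 0.000759 and 0.0117). Rps3, also known as a nuclear partner of NF-kappaB, fell, with log2 fold changes of -0.96 and -0.75 (limma adjusted p = 0.000892 and 0.0137). Rpsa, also named the laminin receptor, fell, with log2 fold changes of -0.61 and -0.65 (limma adjusted p = 0.0078 and 0.0182).

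A set of 20 members passed in neither genotype. Rps6, the substrate of the S6 kinases, was 774 and 704 TPM in untreated WT, 758 in untreated KO, 599 and 687 in treated WT, and 611 and 703 in treated KO. The LPS values lay just under the M0 values, and the changes of -0.20 in WT (SE 0.16, limma adjusted p = 0.321) and -0.21 in KO (SE 0.19, adjusted p = 0.419) did not pass. Rpl24, which helps bridge the subunits, was 876 and 887 TPM in untreated WT, 981 in untreated KO, 1130 and 1076 in treated WT, and 1036 and 804 in treated KO. Its WT value of 0.32 (SE 0.16, limma adjusted p = 0.135) was above 0, and it passed as higher under median-ratio scaling alone (0.54, adjusted p = 0.035). The KO value was -0.10.

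Between genotypes after LPS, Rpl22l1 was the only member called. Rpl22l1, a paralog of the large-subunit gene Rpl22 that can take its place in the ribosome, was 104 and 115 TPM in untreated WT, 110 in untreated KO, 64.4 and 65.8 in treated WT, and 100.3 and 108 in treated KO. It was low in both WT LPS libraries, and the KO LPS pair lay at the M0 level or just under it. KO LPS exceeded WT LPS by 0.67 on the log2 scale (SE 0.15, limma adjusted p = 0.0244); 4.59% of all genes tested were higher and 2.58% lower in this comparison. The call held in 10 of 15 other fits, with adjusted p from 0.0145 to 0.142, and was lost with no filter on low values and when any 1 of the 4 LPS libraries was left out. WT LPS was lower than WT M0 by 0.74 (SE 0.15, adjusted p = 0.00267), the KO value was -0.08 (adjusted p = 0.773), and the difference between these changes, 0.66 (SE 0.24), did not pass (adjusted p = 0.312). The WT LPS libraries are those with Xist, and the 3 stromal and endothelial markers tested were higher in KO LPS than in WT LPS; the part of either in this difference was not tested.

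Rpl22 itself went the same way in both genotypes. It was 194 and 158 TPM in untreated WT, 161 in untreated KO, 119 and 137 in treated WT, and 97.6 and 117 in treated KO. The changes of -0.45 (limma adjusted p = 0.056) and -0.59 (adjusted p = 0.0516) just missed the threshold, although no LPS library reached an M0 library.

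For the other 82 members no difference between the genotypes was called after LPS. An unadjusted limma p under 0.05 was reached by 4 of the 83, Rpl22l1 among them, against 2215 of the 11096 genes tested. The median log2 difference of KO LPS from WT LPS was -0.01, against 0.03 over all genes, with 44 members below 0 and 39 above. Without KO LPS replicate 1, Rpl28, Rpl35 and Rps10 were called lower and Rpl22l1 was not called. These 3 were low in KO LPS replicate 2: Rpl35, at the exit of the peptide tunnel, was 900 TPM in KO LPS replicate 1 and 329 in replicate 2, and Rpl28 was 1066 and 346 TPM. Without stimulation no member was called between KO M0 and WT M0 (limma, with 0.00901% of all genes called). In this comparison 0 members had an unadjusted p under 0.05, against 154 of the 11096 genes tested. The median log2 difference was -0.05 against 0.06 over all genes, from a single KO M0 library. Rps27 was called higher in KO M0 once WT M0 replicate 2 was left out, and its values are uncertain for the reason given below.

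Most paralogs were less abundant than their parents. Rpl10l, a testis paralog of Rpl10, was listed at 0 in all libraries, Rpl39l averaged 0.626 TPM and Rpl3l, a muscle paralog of Rpl3, averaged 0.046 TPM, so these 3 were not tested. Rpl7l1, a paralog of Rpl7 that acts in ribosome assembly, was 98.1 and 103 TPM in untreated WT, 109 in untreated KO, 65.5 and 73.8 in treated WT, and 62.3 and 63.4 in treated KO. It fell, with log2 fold changes of -0.53 and -0.78 (limma adjusted p = 0.0171 and 0.00783), while Rpl7 fell in KO cells by 0.54 (adjusted p = 0.0407) with a WT value of -0.22 that did not pass. Rpl36al averaged 336 TPM against 343 for Rpl36a, and in WT LPS it was above its parent, at 301 and 327 TPM against 212 and 234. Rpl36al was also above Rpl36a in WT M0 replicate 2 (323 against 308 TPM) and KO LPS replicate 1 (330 against 312 TPM), and below it in the other libraries. It had log2 values of -0.28 and -0.35 and Rps27l, a p53-responsive paralog of Rps27, of -0.33 and -0.12, none of which passed. Rps19bp1, which encodes a binding partner of Rps19 and no ribosomal protein, was 22.1 to 44.5 TPM, with a WT value of -0.57 and a KO value of 0.00 that did not pass. Rps4y2 is a transcribed pseudogene in RefSeq (there Rps4l, chr6:148354656-148355596), was 10.5 to 18.4 TPM and did not pass in either genotype. Of the 6 paralogs and name-alikes tested, 2 were lower in WT and 1 in KO cells, and of the 77 others 53 and 38.

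Among members with large WT changes were several with very short coding sequences, and for these 1 library stood apart. Rps29, a zinc-binding small-subunit protein, was 3107 and 491 TPM in WT M0 replicates 1 and 2, 737 in KO M0, 285 and 435 in treated WT, and 610 and 697 in treated KO. Replicate 1 of WT M0 was far above every other library, and the rest overlapped in part. The WT change of -1.81 (SE 0.62, limma adjusted p = 0.0356) had the largest size of the members called in WT cells, and it was -0.48 without WT M0 replicate 1, where it no longer passed. Rpl41, the smallest ribosomal protein, was 3473 and 1153 TPM in untreated WT, 1486 in untreated KO, 634 and 704 in treated WT, and 1199 and 555 in treated KO. Rps28 was 1389 and 306 TPM in untreated WT, 402 in untreated KO, 184 and 254 in treated WT, and 380 and 194 in treated KO. Their WT changes of -1.58 and -1.59 (limma adjusted p = 0.016 and 0.0381) were -0.79 and -0.50 without WT M0 replicate 1 and did not pass.

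**Figure D4:**
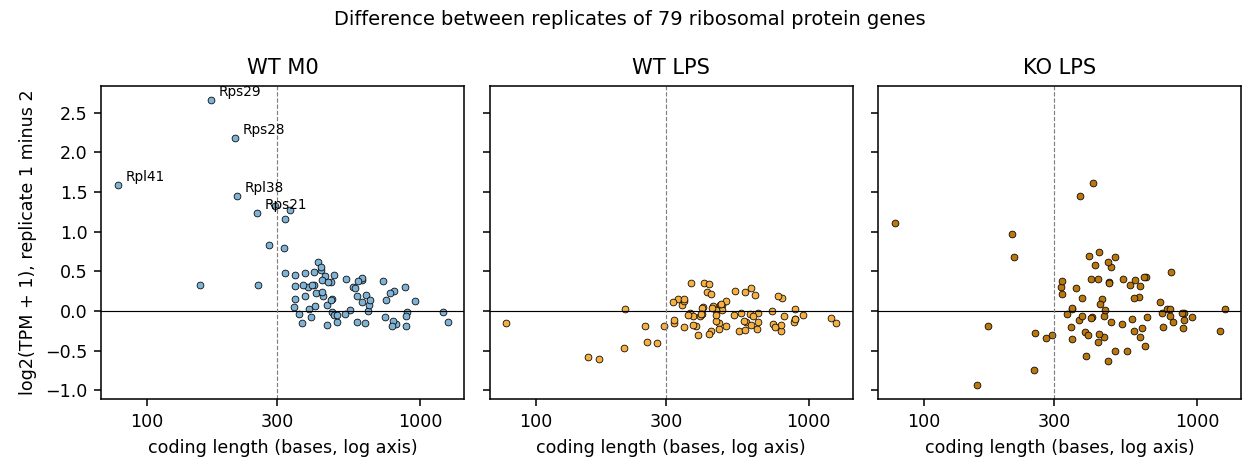
Difference in log2(TPM + 1) between replicates 1 and 2 against coding length (log axis) in WT M0, WT LPS and KO LPS for 79 members; the dashed line marks 300 bases and Rpl26, Rps27, Rpl34 and Rps4y2 are not shown. In WT M0, Rps29, Rps28, Rpl41 and Rpl38 lie far above 0, and in WT LPS the short members lie near or below it. In KO LPS Rpl41, Rps28 and Rpl38 lie above it, by 1.11, 0.96 and 0.68. The other short members shown lie below it there, from -0.19 (Rps29) to -0.93 (Rpl39).

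The same held for short members as a class. In WT M0 the difference between replicates 1 and 2 had a Spearman rho of -0.49 with coding length over 82 members and of -0.34 over 10535 genes tested. The 10 tested members with under 300 coding bases had a median difference of 1.28, and the 72 longer ones of 0.17. In WT LPS rho over members was 0.14, and in KO LPS 0.04. The 10 short members had median differences of -0.398 in WT LPS and -0.295 in KO LPS, and the 72 longer ones of -0.0482 and -0.0225. Short members (11 with Rpl39l) held 1.52% of TPM in WT M0 replicate 1, 0.669% in WT M0 replicate 2, 0.879% in KO M0 and 0.438% to 0.709% in the LPS libraries.

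With all libraries, 7 of the 10 short and 48 of the 72 longer members were called lower in WT LPS, against 29.6% of all genes tested. Their median log2 fold changes were -1.08 and -0.58. Without WT M0 replicate 1, which leaves 1 WT M0 library, the medians were -0.46 and -0.55. In KO cells none of the 10 short and 39 of the 72 longer members were called lower, against 24.3% of all genes tested. The medians there were -0.33 and -0.60. Rpl36, with 318 coding bases, was 1320 and 759 TPM in untreated WT, 857 in untreated KO, 372 and 343 in treated WT, and 498 and 403 in treated KO. It fell by 1.48 in WT (SE 0.24, limma adjusted p = 0.000549) and fell by 0.93 in KO cells (adjusted p = 0.0272), and its WT call held in every fit.

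Rpl26, Rps27 and Rpl34 have abundant near-identical copies outside the name rule, and how reads were divided between them is not given in the sources used here. Their coding sequences were compared with the copies in the GENCODE M21 transcripts. Rpl26 (chr11:68901566-68904534), with 438 coding bases, differs from Gm15772, a processed pseudogene on chromosome 5, by C177T and T288C. Rpl34, with 354 coding bases, differs from Rpl34-ps1 by T132C and C318G, and Rps27, with 255, does not differ from Gm9846 (Rps27rt in RefSeq, on chromosome 9). Positions count from 1 at the first base of the start codon, the gene's base comes first, and the capital marks the differing base in the windows of 41 bases.
Rpl26, at position 177: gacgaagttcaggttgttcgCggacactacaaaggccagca
Gm15772, at position 177: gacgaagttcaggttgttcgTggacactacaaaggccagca
Rpl34, at position 132: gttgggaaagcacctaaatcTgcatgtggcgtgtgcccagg
Rpl34-ps1, at position 132: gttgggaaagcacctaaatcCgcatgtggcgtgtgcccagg

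Values of these members switched between libraries of a group. Rpl26, a large-subunit protein, was listed at 0.335 and 714 TPM in untreated WT, 21.7 in untreated KO, 622 and 7.58 in treated WT, and 0.783 and 8.50 in treated KO. Gm15772 stood at 1893, 1308, 2130, 996, 1924, 1327 and 1939 TPM in the same order. Rps27, a zinc-finger protein of the small subunit, was 28.1 TPM in WT M0 replicate 1 and 752 to 1547 TPM elsewhere, while Gm9846 was 2454 TPM in WT M0 replicate 1 and 43.0 to 127 TPM elsewhere. Rpl34 was 46.5 to 500 TPM and Rpl34-ps1 947 to 1768 TPM. Gm15772 and Rpl34-ps1 took most of their pair's sum in every library, and Gm9846 did so in WT M0 replicate 1 alone.

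**Figure D5:**
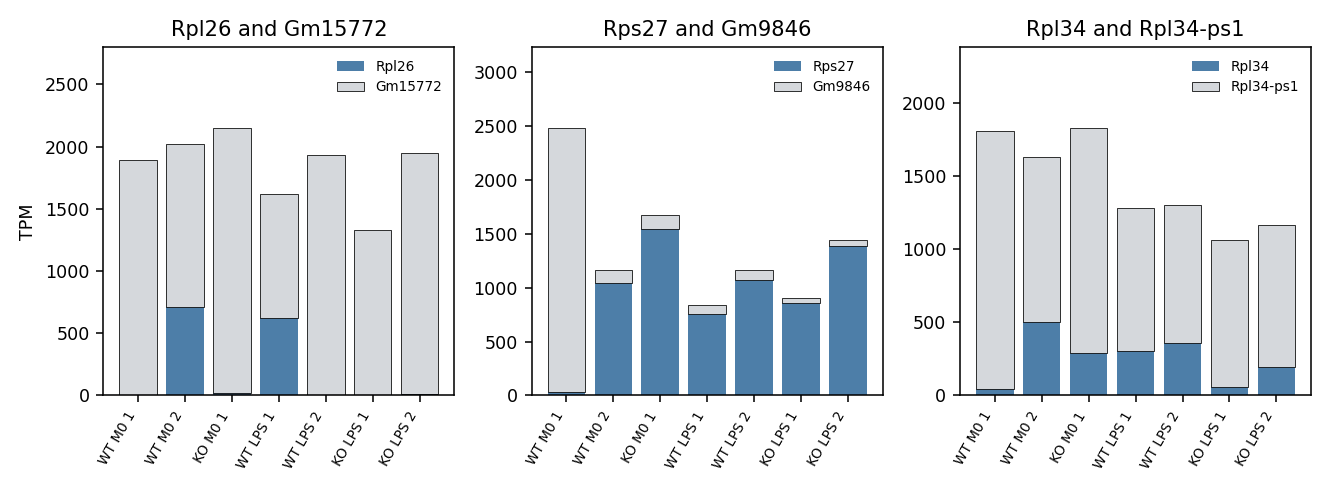
TPM of Rpl26, Rps27 and Rpl34 (blue) stacked with their near-identical copies Gm15772, Gm9846 and Rpl34-ps1 (grey) in each library. The blue part changes between replicates of a group, while the sums of Rpl34 with its copy are 1636 to 1834 TPM in M0 and 1067 to 1306 TPM in LPS libraries.

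Summed with their copies, an alternative chosen after seeing the data, the 3 pairs gave other values. The Rpl34 sum was 1815 and 1636 TPM in untreated WT, 1834 in untreated KO, 1286 and 1306 in treated WT, and 1067 and 1167 in treated KO. It fell by 0.41 in WT (SE 0.15, limma adjusted p = 0.0452) and fell by 0.72 in KO cells (SE 0.18, adjusted p = 0.0107). The Rpl26 sum had changes of -0.15 and -0.42, and the Rps27 sum of -0.78 and -0.56, none of which passed (limma adjusted p from 0.0786 to 0.575). With the sums, 56 members were lower in WT and 40 in KO cells. Copies of at least 95% identity over at least 90% of the coding sequence, expressed at a mean of at least 1 TPM, existed for 8 members in all; for the other 5, among them Rpl21 and Rpl30, they averaged 1.31 to 33.5 TPM.

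Calls were also counted by the pyrimidine run at the start site. Of the 26 tested members with a run at any start, 16 were lower in WT and 9 in KO cells, with medians of -0.68 and -0.56. Of the 36 with a RefSeq start and no such run, 27 and 16 were lower, with medians of -0.55 and -0.56. Over all genes tested, 29.6% were lower in WT and 24.3% in KO cells. Another 21 members had no RefSeq start and stand in neither group.

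Some genes outside the name rule also encode proteins of the ribosome. Rack1 (listed as Gnb2l1), a scaffold on the small subunit, fell, with log2 fold changes of -0.46 in WT and -0.65 in KO cells (limma adjusted p = 0.025 and 0.0152). Fau, a ubiquitin-like protein fused to a small-subunit protein, fell by 0.63 in WT (limma adjusted p = 0.035), and its KO value of -0.21 did not pass. Of 76 mitochondrial ribosomal protein genes, which serve the separate ribosome of mitochondria, 24 were lower (31.6%) and 1 higher in WT, and 19 (25.0%) and 2 in KO cells, with medians of -0.40 and -0.30. The lower shares were near those of all genes tested, 29.6% and 24.3%. The median was -0.31 in WT without WT M0 replicate 1 and -0.25 in KO cells without KO LPS replicate 2. Fewer of these genes were called lower in both of these fits, as over all genes. Mrpl28 fell, with log2 fold changes of -1.61 and -1.26 (limma adjusted p = 0.000182 and 0.00392), and Mrps6 with -1.23 and -1.75 (adjusted p = 0.00045 and 0.000215).

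Of 47 ribosome biogenesis genes, 14 were lower in WT (29.8%, against 29.6% of all genes tested) and 15 in KO cells (31.9%, against 24.3%). None was higher, with medians of -0.36 and -0.53. Ppan, which acts in large-subunit assembly, fell, with log2 fold changes of -1.64 and -1.32, and Rrp1b with -1.38 and -2.05 (limma adjusted p from 3.9e-05 to 0.000865). Nop56, a core protein of the box C/D particles that methylate ribosomal RNA, fell, with log2 fold changes of -0.98 and -1.12 (limma adjusted p = 0.000608 and 0.00124). Of 13 genes for RNA polymerase I, which makes ribosomal RNA, and its factors, 4 were lower (30.8%, near the share of all genes) and 1 higher in WT, and 5 (38.5%) and 1 in KO cells; Polr1c, a subunit shared with RNA polymerase III, fell by 1.07 in WT (limma adjusted p = 0.000543).

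Translation factors are set beside all genes tested, of which 29.6% were lower and 15.0% higher in WT. In KO cells 24.3% of all genes were lower and 13.8% higher. Of 9 elongation factor genes, 3 were lower in WT (33.3%), 5 were lower in KO cells (55.6%) and 0 were higher. Their KO median of -0.62 became -0.52 without KO LPS replicate 2, with fewer lower calls, as over all genes. Eef2, which moves the ribosome along the mRNA, fell, with log2 fold changes of -0.60 and -0.76, and its kinase Eef2k with -2.19 and -2.17 (limma adjusted p = 2.59e-05 and 0.000159). Of 35 initiation factor genes, 6 were higher and 7 lower in WT (17.1% and 20.0%), and 2 and 5 in KO cells (5.71% and 14.3%). Their higher share in WT was near that of all genes, and the other shares were under it. The initiation factors' median WT log2 fold change was 0.07 with all libraries. It was -0.05 without WT M0 replicate 1, 0.08 without WT M0 replicate 2, 0.07 without WT LPS replicate 1 and -0.02 without WT LPS replicate 2. Fewer of them were called in either direction in each of these fits, in which fewer of all genes were lower too. Eif2s2, a subunit of the factor that brings the initiator tRNA, rose by 1.02 in WT, and Eif4g2 by 1.79 in KO cells (limma adjusted p = 0.000518 and 0.000584), while Eif3k fell, with log2 fold changes of -0.82 and -1.11.

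Of 25 genes of mTORC1 and translation control, 4 were higher and 6 lower (24.0%) in WT, and 3 and 9 (36.0%) in KO cells. Among all genes tested, 15.0% were higher and 29.6% lower in WT, and 13.8% and 24.3% in KO cells. The list's lower share was thus under that of all genes in WT and above it in KO cells. Its higher shares were near those of all genes. Myc, a transcription factor known to drive ribosomal protein and biogenesis genes, fell from 38.8 and 45.6 TPM in WT M0 to 3.88 and 3.86 in WT LPS, and from 33.1 in KO M0 to 4.33 and 3.41 in KO LPS. Its changes were -3.15 (SE 0.20) and -2.81 (SE 0.24), with limma adjusted p = 8.32e-07 and 9.4e-06. Larp1, which binds TOP messages, rose by 0.86 and 1.05 (limma adjusted p = 0.00282 and 0.00364), and Eif2ak2, the double-stranded RNA-activated kinase that halts initiation, by 2.17 and 2.37. Subunits of oxidative phosphorylation, which are short messages too, were lower for 31 of 51 in WT (60.8%, against 29.6% of all genes) and for 5 of 51 in KO cells (9.80%, against 24.3%), where 1 was higher. Their summed TPM was 11104 in WT M0 replicate 1, 7879 in WT M0 replicate 2 and 8082 in KO M0. The median WT log2 fold change of these subunits was -0.64 with all libraries. It was -0.38 without WT M0 replicate 1, -0.85 without WT M0 replicate 2 and -0.60 without either of the WT LPS replicates in turn. Fewer of them were called lower in each of these fits, as over all genes. No gene of the translation, ribosome assembly, mitochondrial and mTORC1 lists was called for a difference between the genotypes' LPS changes (limma interaction), or between KO LPS and WT LPS.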

How the data were processed

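The authors deposited a table of TPM per gene for each of 7 libraries. Per the submitters' processing notes the genome build was mm10; which aligner, quantifier and annotation they used is not given in the sources used here. The 7 tables were joined by gene name, and 251 of the 23337 names matched no entry of the reference tables. Genes with a mean of at least 1 TPM (11096) were tested on log2(TPM + 1) with limma 3.58.1 in R 4.3.3 (group means of 4 groups, trend, 3 residual degrees of freedom, prior 7.3), for 5 comparisons, each adjusted by Benjamini-Hochberg over all genes tested; fold changes on this scale understate those of low genes. The fit was checked on simulated data. Depth is unknown. Members and gene lists were chosen with earlier results of these data known. Named genes were the 8 most abundant members, up to 10 members with the largest called changes per comparison, paralogs with their parents, the stalk, a few members with known other roles, untested members, and up to 4 genes of smallest p per list; others were named after their values were seen. Coding lengths came from GENCODE M21, promoters from RefSeq (GRCm38.p6), and copies from blastn 2.17.0. Figures used matplotlib 3.10.9. Alternatives changed scaling, pseudocount, filter, threshold, libraries, the fit and the treatment of copies; the closing section gives their effect. Same-numbered replicates deviated together with r of 0.08 (WT M0 and WT LPS), 0.30 (WT M0 and KO LPS) and 0.18 (WT LPS and KO LPS), so the numbers were not taken to pair the libraries. Some results on single genes are not reported here.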

Additional observations from a re-analysis of the deposited data

How the results depend on the processing

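No member named for a comparison changed direction where it had been called. Some counts below stand without the share of all genes called in the same fit, and so cannot be read against it. In WT cells the 55 called members, all lower, became 20 called with median-ratio scaling (19 lower and 1 higher), 33 with no filter on low values and 29 at an adjusted p of 0.01, and ranged from 28 to 61 with 1 library left out. In KO cells the 39 became 8 with median-ratio scaling, 20 with no filter, 17 with the compared groups alone (20.5% of members, as of all genes) and 12 at 0.01 (14.5%, against 14.0% of all genes), and ranged from 30 to 38 with 1 library left out. The 1 call between KO LPS and WT LPS became 0 with no filter and at 0.01, and 0 to 3 with 1 library left out. Without WT M0 replicate 2 there was 1 call between KO M0 and WT M0 (range 0 to 1) and 3 in the interaction (range 0 to 3): Rpl35a, Rps27 and Rps29. With quantile normalization Rps4y2 alone was called higher, in KO cells. Without the 10 most abundant other genes the share was 11.27% (untreated WT), 10.75% (untreated KO), 7.299% (treated WT) and 7.014% (treated KO); the WT M0 share was 8.689% to 10.45% with a library left out. A replicate block (title numbers, without KO M0, which has none) gave 59 WT calls and 1 between KO LPS and WT LPS, so it changed neither by over 1.5 times. The planned share without mitochondrially encoded genes was not run, since no gene name began with mt-. Groups hold 2 libraries or 1, and the depth is unknown. KO changes could not be fitted without the only KO M0 library. The causes of these shifts were not tested.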
